A study of Mus musculus with 32 samples.

Results

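The renal cytochrome P450 genes described here are the 55 genes on the array whose mouse symbol starts with Cyp and a digit, after 13 of 68 such genes were left out. Those 13 were the steroid synthesis genes, the Cyp4a genes, Cyp4b1, Cyp51 and the vitamin D genes Cyp24a1 and Cyp27b1. The members were found among 15780 named probe sets, each had a single probe set, and 2 of them (Cyp2d13 and Cyp4f41-ps) are annotated as pseudogenes. Expression was measured on Affymetrix arrays, 1 array per kidney, in 32 whole kidneys of lupus-prone mice in 5 groups. In the first group, 6 kidneys came from NZM2410 mice in remission after Ad-BAFF-R-Ig, a soluble receptor for the B cell survival factor BAFF that an adenovirus encodes. The other 26 kidneys came from NZB/W mice. Of these, 6 were taken in late remission and 8 in early remission after triple therapy, which joins cyclophosphamide (CTX), CTLA4Ig and an antibody against CD154. A further 5 were taken in late remission after Ad-TACI-Ig given with CTLA4Ig, and 7 came from untreated mice 30 weeks old without proteinuria. Ages of the treated mice and the sex of all mice are not in the labels, and nephritic kidneys are not analysed here.

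P450 enzymes are heme proteins that add oxygen to lipids, steroids, retinoids and drugs with electrons passed on from NADPH. In the kidney they are known mostly from the proximal tubule, where members of the Cyp2c and Cyp2j families make epoxides and hydroxylated acids from arachidonic acid that act on blood vessels and on sodium transport. Other families break down retinoic acid, make bile acids and oxysterols, or clear foreign compounds.

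Values are log2 expression from RMA, made by the authors for 1 probe set per gene, and array medians ran from 7.04 to 7.17. The mean of 18 proximal tubule genes lay between 11.29 and 12.17 in every kidney. Xist was between 9.79 and 11.01 in all kidneys but TACI-Ig kidney 3 (7.81), and the Y-linked genes Eif2s3y and Uty did not pass 3.93 and 4.39 in any kidney. Adrenal and liver genes varied between kidneys: the mean of 8 adrenal cortex genes ran from 5.55 to 8.94 among the 30-week kidneys, and that of 11 liver genes from 7.49 to 8.48. Pooling the 12 TACI-Ig and 30-week kidneys gave each P450 gene a mean that differed by at most 0.00924 from its triple-therapy late-remission mean (at most 0.0255 for any gene), so that group was not tested against either of them. Whole kidneys do not separate fewer cells of a type from less RNA per cell. The P-values measure the spread between kidneys as the labels separate them, and the Cyp2b, Cyp2c, Cyp2d, Cyp2j and Cyp3a genes have close copies, so a probe set may also read a paralog.

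A mean log2 level of at least 6 over all kidneys was reached by 27 of the 55 members, and the same number passed after renewed quantile normalization and after median centring of the arrays. Just above this limit were Cyp39a1 (6.13), Cyp7b1 (6.22) and Cyp46a1 (6.22), and just under it were Cyp8b1 (5.93), Cyp2c55 (5.88) and Cyp3a13 (5.77). Whether the 28 dimmer members were above the background of the array cannot be read from these values. Levels of different genes are not ranked, since probe sets differ in brightness.

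**Figure D1:**
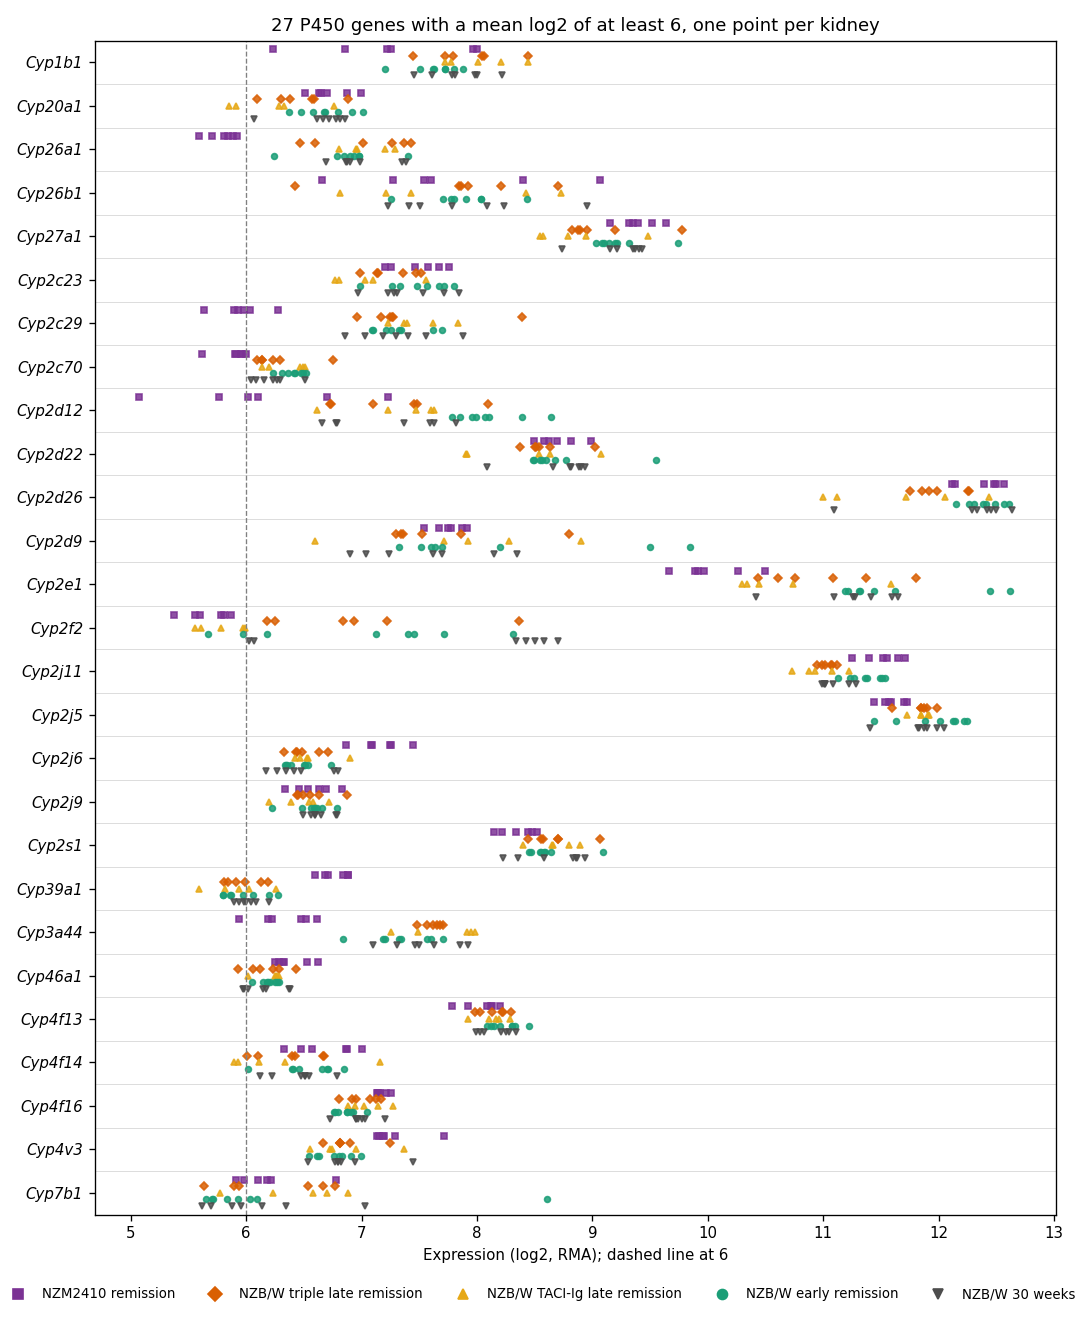
Log2 expression (x axis, RMA) of the 27 cytochrome P450 genes with a mean of at least 6, with 1 row per gene, 1 point per kidney, colours for the 5 groups and a dashed line at 6. Cyp2f2 ranges from 6.02 to 8.70 in the 30-week kidneys, whereas Cyp2j11 stays between 10.73 and 11.71 in all kidneys.

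Of the arachidonic acid enzymes, 4 of 5 Cyp2j and 3 of 8 Cyp2c genes reached the limit. Cyp2j5, an epoxygenase of the mouse proximal tubule, averaged 11.59 ± 0.10 in NZM2410 remission (SD, n = 6), 11.84 ± 0.13 in triple-therapy late remission (SD, n = 6), 11.85 ± 0.08 in TACI-Ig late remission (SD, n = 5), 11.96 ± 0.29 in early remission (SD, n = 8) and 11.84 ± 0.21 at 30 weeks (SD, n = 7). Cyp2j11, of the same family, averaged 11.51 ± 0.17, 11.04 ± 0.06, 10.97 ± 0.19, 11.36 ± 0.15 and 11.09 ± 0.12 in the same order of groups. For Cyp2j5 the NZM2410 mean thus lay below the NZB/W means, whereas for Cyp2j11 the NZM2410 and early-remission means lay above the other groups. Cyp2c23, the main renal epoxygenase of its family in mice, had group means between 7.05 (TACI-Ig) and 7.48 (NZM2410 and early remission). The other members of these families at or above the limit were Cyp2j6, Cyp2j9, Cyp2c29, also an epoxygenase, and Cyp2c70, which makes muricholic bile acids in mouse liver.

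Among the enzymes of drugs and small molecules, 4 of 7 Cyp2d genes, Cyp2e1, Cyp2f2 and 1 of 5 Cyp3a genes reached the limit, as did 1 of 3 genes of the Cyp1 family, whereas the 4 Cyp2b genes and Cyp2a12 did not. Cyp2d26 averaged 12.37 ± 0.19 in NZM2410 remission, 12.01 ± 0.21 in triple-therapy late remission, 11.67 ± 0.61 in TACI-Ig late remission, 12.40 ± 0.15 in early remission and 12.25 ± 0.52 at 30 weeks. Cyp2e1, which oxidizes ethanol and acetaminophen, averaged 10.03 ± 0.30, 11.01 ± 0.52, 10.68 ± 0.54, 11.65 ± 0.57 and 11.24 ± 0.41 in the same order. Cyp2d26 spread most in the TACI-Ig and 30-week groups, and the NZM2410 mean of Cyp2e1 was the lowest of its group means. Cyp1b1, which metabolizes estrogens and polycyclic hydrocarbons, was at 7.25 ± 0.68 in NZM2410 remission and had NZB/W means between 7.63 and 8.03. The aryl hydrocarbon receptor targets Cyp1a1 and Cyp1a2 had group means of 5.36 to 5.82. Cyp2d9, Cyp2d12, Cyp2d22, Cyp3a44 and Cyp2s1 also passed the limit.

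Of the sterol and bile acid enzymes, Cyp27a1 (the mitochondrial sterol hydroxylase), Cyp7b1 and Cyp39a1 (oxysterol hydroxylases) and Cyp46a1 (cholesterol hydroxylase) reached the limit, but Cyp7a1 and Cyp8b1, which are known from bile acid synthesis in the liver, did not. Cyp27a1 had group means between 8.87 (TACI-Ig) and 9.39 (NZM2410). Of the Cyp4f and Cyp4v genes, whose products hydroxylate the end of fatty acid chains, 4 of 8 passed, namely Cyp4f13, Cyp4f14, Cyp4f16 and Cyp4v3. Cyp4f13 group means lay between 8.04 (NZM2410) and 8.24 (early remission). Both retinoic acid hydroxylases passed. Cyp26b1 had group means of 7.72 to 7.89, and its 6 NZM2410 kidneys ran from 6.66 to 9.06. Cyp20a1, a P450 without a known substrate, had group means between 6.23 and 6.73.

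Early remission after triple therapy was first set against untreated 30-week kidneys. No P450 gene passed limma's test at an adjusted p under 0.05, and neither did any other gene (0% of 15780). Cyp2d12 came closest of the members, with 7.78, 8.03 and 8.64 as the lowest, median and highest value in early remission, against 6.66, 7.37 and 7.82 at 30 weeks. The groups overlapped only where early-remission kidney 3 (7.78) lay below 30-week kidney 4 (7.82). Cyp2d12 averaged 8.10 ± 0.28 in early remission (SD, n = 8) and 7.23 ± 0.48 at 30 weeks (SD, n = 7), a log2 difference of 0.86 (SE 0.18, 95% interval 0.49 to 1.24, limma adjusted p = 0.141). Cyp2j11 was next, with 11.13, 11.37 and 11.53 in early remission, against 10.99, 11.02 and 11.28 at 30 weeks (difference 0.27, SE 0.07, limma adjusted p = 0.231). These genes are named after their values were seen, since the rule named only called members. At an unadjusted p under 0.05, 5 members were higher in early remission (Cyp2d12, Cyp2j11, Cyp2c55, Cyp2c70 and Cyp4f15) and 0 were lower, beside 5.42% and 3.37% of all genes. The groups did not overlap in 0 members, beside 0.0634% of all genes higher and 0.0697% lower without overlap. Without early-remission kidneys 2 and 8 and 30-week kidney 2, a choice made after seeing the data, Cyp2j11 alone of the members passed (0.32, limma adjusted p = 0.0318), as did 0.83% of all genes that were higher and 0.38% that were lower.

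In early remission Cyp7b1 and Cyp2j13 each had a single high kidney, and Cyp2d9 was high in kidneys 8 and 2. Cyp2d9, a steroid hydroxylase known for higher levels in male mice, was at 9.85 in kidney 8 and 9.50 in kidney 2, whereas the other early-remission kidneys lay between 7.32 and 8.20. Cyp7b1 was at 8.61 in kidney 8 and between 5.65 and 6.09 in the others, and Cyp2j13 was at 7.50 in kidney 8 and between 4.90 and 5.17 in the others. The proximal tubule transporter Slc7a13 was also high in kidney 8, at 10.68. In that kidney Xist was 10.58, Eif2s3y 3.84 and Uty 4.13, so its Y-linked genes were no higher than in other NZB/W kidneys.

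Late remission after Ad-TACI-Ig and CTLA4Ig was then set against 30-week kidneys. Again 0 members passed the test, as did 0% of all genes. At an unadjusted p under 0.05, 2 members were higher (Cyp2c55 and Cyp8b1) and 5 were lower (Cyp2f2, Cyp2e1, Cyp20a1, Cyp27a1 and Cyp2c23), beside 10.7% and 9.67% of all genes. Cyp2e1 was 10.34, 11.59, 10.44, 10.74 and 10.30 in the TACI-Ig kidneys, against 10.42, 11.27 and 11.65 as lowest, median and highest at 30 weeks (difference -0.56, SE 0.23, limma adjusted p = 0.219). TACI-Ig kidney 2 was as high as the upper 30-week kidneys and 30-week kidney 2 as low as the lower TACI-Ig kidneys. Cyp27a1 showed the same pattern, with 8.55, 9.48, 8.79, 8.95 and 8.57 in TACI-Ig kidneys, against 8.74, 9.35 and 9.43 at 30 weeks (difference -0.37, limma adjusted p = 0.224). Without TACI-Ig kidney 2, 4 members passed the test, each lower: Cyp2e1 (-0.79, adjusted p = 0.0349), Cyp27a1 (-0.52, adjusted p = 0.0354), Cyp2f2 (-2.02, adjusted p = 0.0395) and Cyp20a1 (-0.55, adjusted p = 0.0419). In that fit 3.28% of all genes were higher and 5.02% lower, so the members' share was near that of all genes. It was singled out after its result was seen. The other 11 fits with 1 kidney left out called none of these 4 members (limma adjusted p up to 0.506, for Cyp27a1). The proximal tubule list moved with these genes: its mean was 11.29, 11.98, 11.55, 11.73 and 11.29 in TACI-Ig kidneys 1 to 5, against 11.37 in 30-week kidney 2 and 11.86 to 12.04 in the other 30-week kidneys. Its sodium phosphate transporter Slc34a1 was 12.13, 13.30, 12.86, 13.26 and 12.23 in the TACI-Ig kidneys and 12.36 in 30-week kidney 2. The part of this in the P450 values was not tested.

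Cyp2f2, known for naphthalene metabolism in the airway, was 5.56, 5.78, 5.60, 5.99 and 5.97 in TACI-Ig kidneys, against 8.33, 8.58, 8.70, 6.02, 8.50, 8.43 and 6.07 in 30-week kidneys 1 to 7. Every TACI-Ig kidney thus lay below every 30-week kidney, as for 0.234% of all genes, and 30-week kidneys 4 and 7 stood just above them. The difference was -2.02 (SE 0.47, 95% interval -3.03 to -1.02, limma adjusted p = 0.203). The 8 adrenal cortex genes measured averaged 5.50 to 5.74 in TACI-Ig kidneys and 8.76, 8.79, 8.89, 6.07, 8.68, 8.94 and 5.55 in 30-week kidneys 1 to 7, so the 30-week kidneys that were low in Cyp2f2 were also the low ones for the list. Of these genes 8 of 8 were lower in TACI-Ig kidneys at an unadjusted p under 0.05, and Cyp21a1, a defining gene of that cortex, was 5.44 to 5.87 in TACI-Ig kidneys and 5.79 to 10.67 at 30 weeks. In early remission, Cyp2f2 was 7.72, 7.45, 5.67, 7.40, 8.32, 5.97, 6.18 and 7.13 in kidneys 1 to 8, and the adrenal mean was 7.90, 8.55, 5.28, 8.46, 8.49, 5.94, 5.97 and 6.65. Kidneys 3, 6 and 7 were thus the lowest for both. In triple-therapy late remission Cyp2f2 ran from 6.18 to 8.36 and the adrenal mean from 6.77 to 7.15. The gene means of that group equal those of the pooled TACI-Ig and 30-week kidneys (Cyp2f2, 6.964 and 6.960). Its adrenal level is thus not read as an amount of tissue. The part of adrenal tissue in the Cyp2f2 values was not tested.

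**Figure D2:**
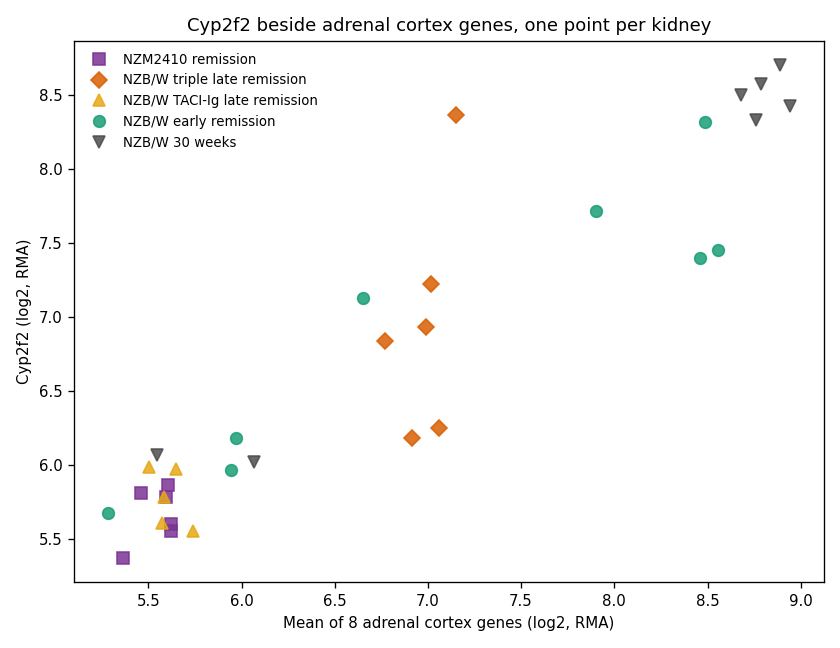
Cyp2f2 (y axis, log2 expression) against the mean log2 level of 8 adrenal cortex genes (x axis) in each of 32 kidneys, coloured by group. TACI-Ig and NZM2410 kidneys lie at the low end of both axes, with Cyp2f2 at most 5.99, and the 30-week kidneys split into 5 high and 2 low ones on both axes. The triple-therapy late-remission means nearly equal the pooled means of the TACI-Ig and 30-week kidneys.

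TACI-Ig late remission was also set against early remission, a comparison in which regimen and time cannot be told apart. No member was called (0% of all genes), but 8 members were lower and 3 higher at an unadjusted p under 0.05, beside 8.52% and 6.29% of all genes. Cyp2d12 was 6.61, 7.63, 7.47, 7.60 and 7.23 in TACI-Ig kidneys, all below the early-remission range of 7.78 to 8.64 (difference -0.79, SE 0.17, limma adjusted p = 0.131), and 0.234% of all genes were lower without overlap. Cyp2d26 was 10.999, 12.43, 11.72, 12.06 and 11.12 in TACI-Ig kidneys, against 12.15, 12.40 and 12.61 as lowest, median and highest in early remission (difference -0.73, SE 0.19, limma adjusted p = 0.158). Cyp2j11 was 11.08, 11.22, 10.87, 10.93 and 10.73, against 11.13, 11.37 and 11.53 (difference -0.40, SE 0.09, limma adjusted p = 0.131). For Cyp2d26 and Cyp2j11, only TACI-Ig kidney 2 reached into the early-remission range. The other lower ones were Cyp2e1 (-0.96), Cyp2f2 (-1.20), Cyp20a1 (-0.46), Cyp2c23 (-0.43) and Cyp27a1 (-0.36), and the higher ones were Cyp1b1 (0.40), Cyp3a44 (0.37) and Cyp4f16 (0.18). Without TACI-Ig kidney 2, 7 members passed, all lower: Cyp2d26 (-0.93, adjusted p = 0.00725), Cyp2j11 (-0.46, adjusted p = 0.00962), Cyp2d12 (-0.87, adjusted p = 0.015), Cyp20a1 (-0.59, adjusted p = 0.0154), Cyp2e1 (-1.19, adjusted p = 0.0168), Cyp27a1 (-0.51, adjusted p = 0.0226) and Cyp2c23 (-0.55, adjusted p = 0.0273), where 2.43% of all genes were higher and 4.39% lower. This fit was singled out after its result was seen. The other 12 fits with 1 kidney left out called none of these 7 members (limma adjusted p up to 0.622, for Cyp27a1). A limma fit over all 5 groups called 3 of them, Cyp2j11 (adjusted p = 0.0142), Cyp2e1 (adjusted p = 0.043) and Cyp2d26 (adjusted p = 0.0458), where 0.292% of all genes were higher and 1.7% lower. Of 18 proximal tubule genes, 12 were lower at an unadjusted p under 0.05 in the same comparison, with a median difference of -0.46.

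Late remission after triple therapy was also set against early remission after the same therapy. The late gene means nearly equal those of the pooled TACI-Ig and 30-week kidneys, so a set like the ones above was fixed in advance. Of all genes 0.0697% passed, all lower in late remission, and 0 members did. At an unadjusted p under 0.05, 4 members were lower and 2 higher, beside 3.81% and 1.5% of all genes. Cyp2j11 was 10.94, 11.04 and 11.12 as lowest, median and highest in late remission, against 11.13, 11.37 and 11.53 in early remission, so the groups did not overlap, as for 0.222% of all genes that were lower and 0.0317% that were higher (difference -0.33, SE 0.07, limma adjusted p = 0.0901). Cyp2d12 was 6.73, 7.27 and 8.09, against 7.78, 8.03 and 8.64 (difference -0.83, SE 0.19, limma adjusted p = 0.178), and late kidney 10 alone reached into the early range. Cyp2d26 (-0.39, limma adjusted p = 0.192) and Cyp2e1 (-0.63, limma adjusted p = 0.771) were the other lower ones, and Cyp3a44 (0.27) and Cyp1b1 (0.28) the higher ones. With name letters as a covariate, a fit in which only early-remission kidney 8 shares the letter of the late kidneys, the Cyp3a44 difference was -0.088. Without early-remission kidney 8, Cyp2j11 passed (-0.36, adjusted p = 0.0327), as did 0.171% of all genes that were lower. Without early-remission kidneys 2 and 8, a choice made after seeing the data, Cyp2j11 (-0.39, adjusted p = 0.0124) and Cyp2d26 (-0.46, adjusted p = 0.0412) passed, as did 0.444% of all genes that were lower and 0.0317% that were higher. Since the late-remission mean equals that of the pooled TACI-Ig and 30-week kidneys, this comparison is not separate from the ones above. Its differences, P-values and lack of overlap cannot show what late triple therapy did. Both comparisons also share the early-remission kidneys.

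**Figure D3:**
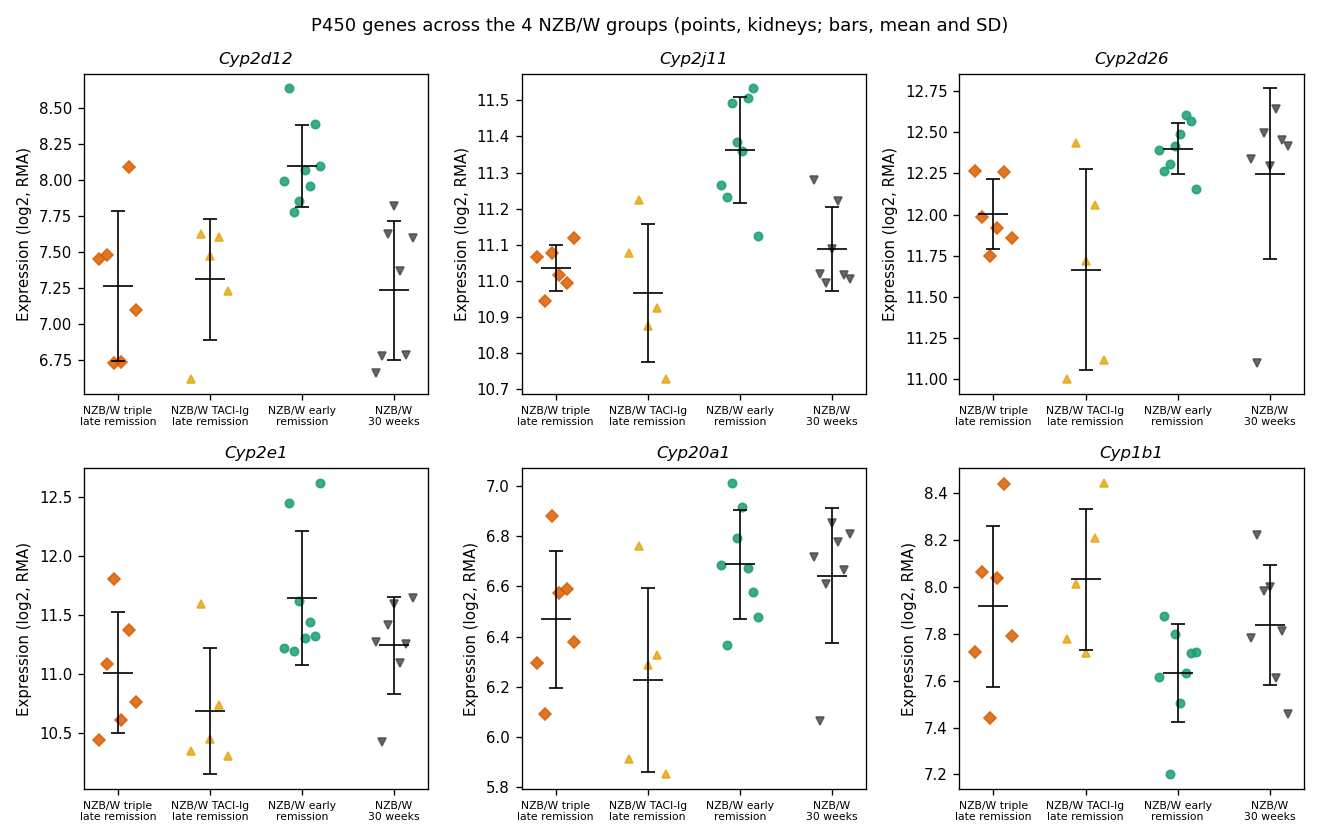
Log2 expression per kidney (points, y axis) of Cyp2d12, Cyp2j11, Cyp2d26, Cyp2e1, Cyp20a1 and Cyp1b1 in NZB/W kidneys in triple-therapy late remission, TACI-Ig late remission, early remission and at 30 weeks, with bars for the mean ± SD. Cyp2j11 in triple-therapy late remission lies between 10.94 and 11.12, below all early-remission kidneys, and Cyp2e1 in the TACI-Ig group lies between 10.30 and 11.59. The triple-therapy late-remission means nearly equal the pooled means of the TACI-Ig and 30-week kidneys, so their place is not read as an effect of therapy.

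NZM2410 kidneys in remission were set against NZB/W kidneys in TACI-Ig late remission and at 30 weeks. Strain and treatment cannot be told apart in these comparisons, nor can age, which the labels give for the 30-week kidneys only, and the comparisons also share the NZM2410 kidneys. Against TACI-Ig, 38 of 55 members passed, 9 higher and 29 lower, where 59.5% of all genes passed, 28.6% higher and 30.9% lower. Against 30 weeks, likewise 38 passed, 9 higher and 29 lower, where 62.8% of all genes passed, 31.5% higher and 31.3% lower. By the fold and significance limits of the methods (adjusted p at most 0.001, fold at least 1.4 or at most 0.7), 4 were higher and 16 lower against TACI-Ig (8.25% and 11.7% of all genes), and 3 were higher and 11 lower against 30 weeks (7.45% and 9.2%). The groups did not overlap in 3 members that were higher and 22 that were lower than in TACI-Ig kidneys, beside 16.1% and 22.4% of all genes, and in 3 that were higher and 18 that were lower than at 30 weeks, beside 16.5% and 19.9%.

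The balance differed with the level of the gene. NZM2410 arrays had an SD over probe sets of 2.11 to 2.17, against 1.90 to 2.03 in NZB/W arrays, and genes with a mean under 6 were lower in NZM2410 kidneys by a median of 0.33 than in TACI-Ig kidneys, over all genes. The 28 dim members had a median difference of -0.51, with 1 higher and 20 lower (13.3% and 59.2% of all dim genes). After quantile normalization the median of all dim genes was 0.01, and 3 of the dim members were higher and 11 lower (26% and 22.8% of all dim genes). Among the 27 members with a mean of at least 6, 8 were higher and 9 lower than in TACI-Ig kidneys as deposited, where 35.9% and 17.4% of all such genes were, and 5 were higher and 9 lower after quantile normalization, where 23.7% and 23.5% of all such genes were. Against 30 weeks, 6 were higher and 10 lower as deposited (38.1% and 18.8% of all such genes), and 4 were higher and 11 lower after quantile normalization (26.3% and 24.9%). Of the 27, 2 were higher and 5 lower than TACI-Ig kidneys without overlap, where 20% and 10.2% of all such genes were. The 30-week comparison had 2 higher and 5 lower without overlap (19.5% and 9.19%). By the fold and significance limits, 3 of the 27 were higher and 3 lower than in TACI-Ig kidneys (9.89% and 5.11%). Those limits gave 2 higher and 5 lower than at 30 weeks (8.29% and 4.6%).

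**Figure D4:**
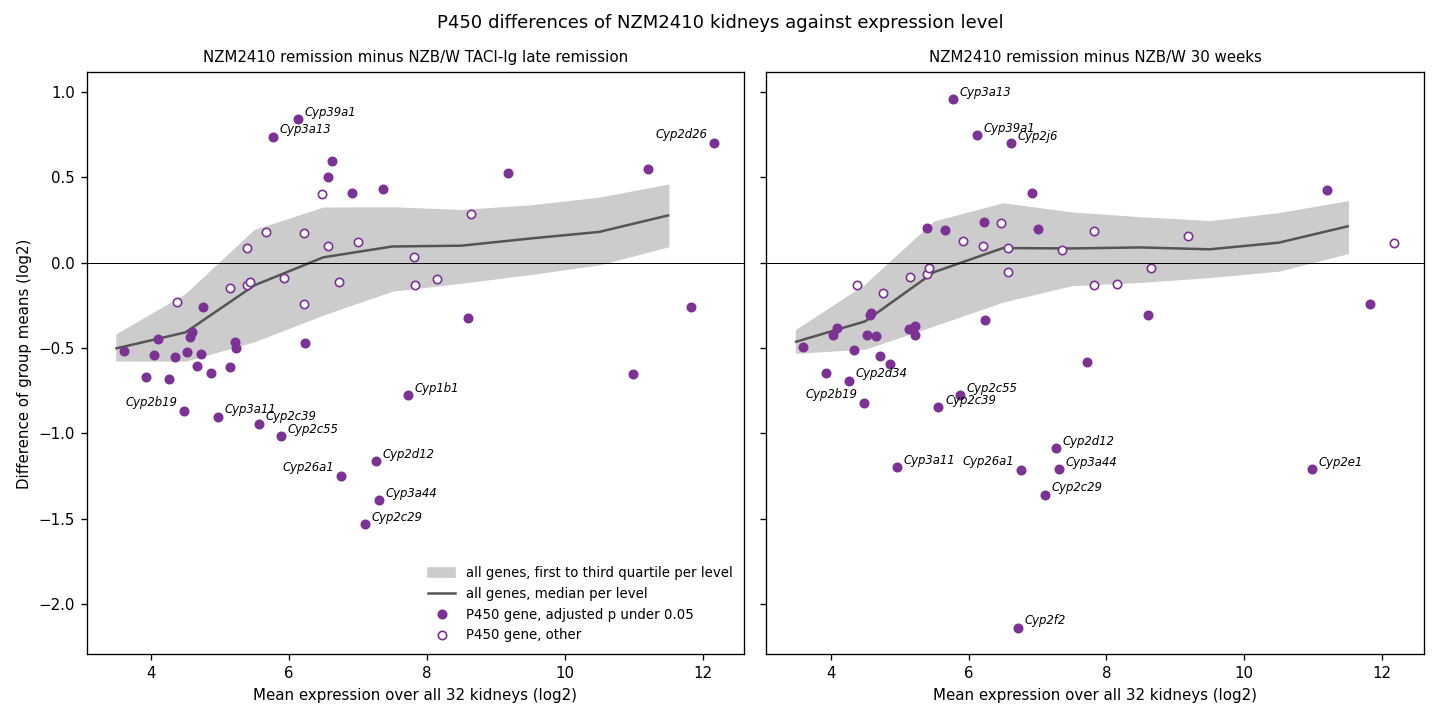
Difference of group means in log2 (y axis) against the mean log2 level over all kidneys (x axis) for the 55 cytochrome P450 genes, for NZM2410 remission minus TACI-Ig late remission (left) and minus 30 weeks (right), with filled points for called genes and a grey band from the first to the third quartile of all genes at each level and a line for their median. The median lies below 0 at low levels and above it at higher levels, and Cyp2c29, Cyp3a44 and Cyp26a1 lie below it at -1.53, -1.39 and -1.25 in the left panel.

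Cyp26a1, the retinoic acid hydroxylase that is known to be induced by retinoic acid itself, was lower in NZM2410 kidneys. It was 5.59, 5.82 and 5.92 as lowest, median and highest in NZM2410 remission, against 7.20, 6.96, 6.81, 7.29 and 6.95 in TACI-Ig kidneys and 6.69, 6.90 and 7.38 at 30 weeks. No NZM2410 kidney reached any kidney of these groups. The difference was -1.25 from TACI-Ig (SE 0.09, 2.38-fold lower, limma adjusted p = 6.55e-07) and -1.21 from 30 weeks (SE 0.11, 2.32-fold lower, limma adjusted p = 2.78e-07), and -1.21 and -1.19 after quantile normalization. Its paralog Cyp26b1, which does the same reaction, was 6.66, 7.57 and 9.06 in NZM2410 kidneys, against 7.21, 8.72, 7.42, 8.42 and 6.81 in TACI-Ig kidneys (difference 0.03, limma adjusted p = 0.95). The spread of Cyp26b1 between kidneys of a group was thus larger than any difference between these groups.

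The sequences before the starts of both genes are shown because Cyp26a1 is known for a retinoic acid response element there, with those of Cyp2c29 and Cyp2c70, called members of another family that lie with Cyp26a1 on chromosome 19. They are the 250 bases before the annotated start from RefSeq (build GRCm38.p6), written 5′ to 3′ on the strand of the gene, with the receptor motifs AGTTCA and AGGTCA (or their reverse complements TGAACT and TGACCT) in capitals. They lie at chr19:37697558-37697807 (plus strand) for Cyp26a1, chr6:84593811-84594060 (minus strand) for Cyp26b1, chr19:39286835-39287084 (plus strand) for Cyp2c29 and chr19:40187287-40187536 (minus strand) for Cyp2c70.
Cyp26a1: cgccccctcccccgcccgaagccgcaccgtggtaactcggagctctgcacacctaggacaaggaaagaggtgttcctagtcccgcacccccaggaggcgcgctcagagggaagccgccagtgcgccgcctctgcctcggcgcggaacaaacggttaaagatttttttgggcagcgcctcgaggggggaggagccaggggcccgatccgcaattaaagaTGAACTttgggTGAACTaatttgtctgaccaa
Cyp26b1: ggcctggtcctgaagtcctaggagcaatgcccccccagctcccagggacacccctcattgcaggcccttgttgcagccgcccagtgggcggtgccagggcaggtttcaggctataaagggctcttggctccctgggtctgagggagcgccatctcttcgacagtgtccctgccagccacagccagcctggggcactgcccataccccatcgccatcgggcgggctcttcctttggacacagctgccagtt
Cyp2c29: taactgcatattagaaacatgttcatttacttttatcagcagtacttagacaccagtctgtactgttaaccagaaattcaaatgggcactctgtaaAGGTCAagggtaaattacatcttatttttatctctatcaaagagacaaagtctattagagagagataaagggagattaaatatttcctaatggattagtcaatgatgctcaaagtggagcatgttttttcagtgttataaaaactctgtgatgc
Cyp2c70: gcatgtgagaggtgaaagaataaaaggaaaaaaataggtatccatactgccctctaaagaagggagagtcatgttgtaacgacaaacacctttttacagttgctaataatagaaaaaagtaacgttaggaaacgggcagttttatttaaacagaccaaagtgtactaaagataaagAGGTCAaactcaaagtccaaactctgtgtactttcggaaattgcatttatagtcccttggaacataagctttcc

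In the Cyp26a1 window, 2 copies of the motif AGTTCA start 32 and 21 bases before the gene start on the reverse strand, as a direct repeat 5 bases apart. This repeat (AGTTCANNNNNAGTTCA, searched on both strands) was in 7 of 32851 promoters (0.0213%), and Cyp26a1 was the 1 member that held it. Cyp26b1 held neither motif in this window. Cyp2c29 and Cyp2c70 each held 1 AGGTCA, 154 and 74 bases before the start. Of all promoters, 11.8% held AGTTCA and 14% held AGGTCA, and so did 7 and 11 of the members, of which 45 of 55 had a promoter in the table. A match is only a description of the letters.

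Of the Cyp2c and Cyp3a genes, the called members were lower as deposited except Cyp2c23, against TACI-Ig, and Cyp3a13. After quantile normalization the dim Cyp2c38, Cyp3a16 and Cyp3a25 lost their calls in both comparisons and Cyp2c50 lost its call against 30 weeks. Signs turned for Cyp3a16 against TACI-Ig (0.02) and for Cyp2c38 (0.04) and Cyp3a25 (0.03) against 30 weeks. The dim Cyp2c37 was then called higher than at 30 weeks (0.23, limma adjusted p = 0.00859). Cyp2c29 was 5.63, 5.96 and 6.27 in NZM2410 kidneys, against 7.62, 7.39, 7.23, 7.37 and 7.83 in TACI-Ig kidneys (difference -1.53, SE 0.12, 2.89-fold lower, limma adjusted p = 9.56e-07). At 30 weeks it was 6.86, 7.30 and 7.88, and the difference was -1.36 (SE 0.14, limma adjusted p = 1.41e-06). All NZM2410 kidneys lay below all kidneys of both groups. Cyp3a44, a drug and steroid enzyme known for higher levels in the liver of female mice, was 5.94, 6.35 and 6.61 in NZM2410 kidneys, against 7.98, 7.26, 7.91, 7.49 and 7.95 in TACI-Ig kidneys (difference -1.39, SE 0.15, 2.62-fold lower, limma adjusted p = 8.94e-06). At 30 weeks Cyp3a44 was 7.10, 7.50 and 7.92 (difference -1.21, SE 0.14, limma adjusted p = 2.79e-06), again with no overlap. Cyp2c23 was higher than in TACI-Ig kidneys (difference 0.43, SE 0.14, limma adjusted p = 0.0188), a call lost without TACI-Ig kidney 1 (adjusted p = 0.0531) or 5 (adjusted p = 0.0521) and after quantile normalization (adjusted p = 0.0577). Its mean was 7.48 in NZM2410 kidneys and 7.41 at 30 weeks. Cyp2c70 was lower by less, with differences of -0.47 from TACI-Ig (limma adjusted p = 7.59e-04) and -0.33 from 30 weeks.

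Several dim genes of these families were lower in NZM2410 kidneys too. Cyp2c55 was 5.02, 5.12 and 5.30, against 6.36, 6.04, 6.03, 6.06 and 6.30 in TACI-Ig kidneys (difference -1.02) and 5.72, 5.92 and 6.05 at 30 weeks (difference -0.78). Cyp2c39, which acts on retinoic acid in mouse liver, was 4.72, 4.82 and 4.99, against 5.94, 5.76, 5.74, 5.85 and 5.64 in TACI-Ig kidneys (difference -0.94) and 5.61, 5.64 and 5.81 at 30 weeks (difference -0.84). The groups did not overlap for either gene, and after quantile normalization the differences from TACI-Ig were -0.86 and -0.71. Cyp3a11, the main drug-metabolizing Cyp3a of mouse liver, was 3.91, 3.99 and 4.22 in NZM2410 kidneys, against 4.90, 4.83, 4.79, 4.71 and 5.34 in TACI-Ig kidneys (difference -0.90) and 4.69, 4.95 and 7.01 at 30 weeks (difference -1.20, limma adjusted p = 0.00226). The highest 30-week value was in kidney 5, where the mean of 11 liver genes was 8.48, against 7.49 to 7.64 in the other kidneys of that group, and the part of liver RNA was not tested. After quantile normalization its difference from TACI-Ig was -0.47.

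Of the other dim members among the largest differences, Cyp2b19 was 3.62, 3.81 and 3.91 in NZM2410 kidneys, against 4.59, 4.76, 4.66, 4.56 and 4.79 in TACI-Ig kidneys (difference -0.87) and 4.49, 4.62 and 4.75 at 30 weeks (difference -0.82). Cyp2d34 was 3.59, 3.72 and 3.77, against 4.39, 4.297, 4.55, 4.38 and 4.29 (difference -0.68) and 4.24, 4.397 and 4.56 (difference -0.69). Cyp2r1, a vitamin D hydroxylase, was 3.33, 3.38 and 3.49, against 4.13, 3.95, 3.995, 4.11 and 4.12 (difference -0.67) and 3.90, 4.01 and 4.15 (difference -0.65). The NZM2410 kidneys were below all kidneys of both groups for each of these. Over all genes as deposited, the median difference from TACI-Ig was -0.50 at a mean under 4 and -0.41 at 4 to 5. From 30 weeks these medians were -0.46 and -0.34. The lack of overlap is thus not read as particular to these P450 genes. After quantile normalization the differences from TACI-Ig were -0.40, -0.20 and -0.16, against -0.87, -0.68 and -0.67 as deposited. They were thus much smaller but still called.

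Cyp3a13 ran the other way within its family. It was 6.26, 6.44 and 6.90 in NZM2410 kidneys, against 5.99, 5.64, 5.67, 5.32 and 6.13 in TACI-Ig kidneys (difference 0.74, SE 0.14, limma adjusted p = 6.95e-04) and 5.23, 5.56 and 5.76 at 30 weeks (difference 0.96, SE 0.10, 1.95-fold higher, limma adjusted p = 1.45e-06). Neither group overlapped with the NZM2410 kidneys.

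Cyp39a1, which hydroxylates oxysterols toward bile acids, was higher in NZM2410 kidneys, at 6.60, 6.77 and 6.88, against 6.02, 5.94, 5.82, 5.59 and 6.25 in TACI-Ig kidneys (difference 0.84, SE 0.10, 1.79-fold higher, limma adjusted p = 2.34e-05). At 30 weeks it was 5.89, 5.997 and 6.19 (difference 0.75, SE 0.06, limma adjusted p = 1.84e-07), and no kidney of either group reached the NZM2410 range. Of the other sterol and bile acid genes, Cyp27a1 was higher against TACI-Ig (0.53, limma adjusted p = 0.00849) and Cyp46a1 against 30 weeks (0.24), whereas the dim Cyp7a1 was lower against both (-0.64 and -0.60, and -0.28 and -0.29 after quantile normalization). The Cyp27a1 mean was 9.39 in NZM2410 kidneys and 9.24 at 30 weeks. The call of Cyp46a1 was lost under each of 3 rescalings, with adjusted p between 0.0691 and 0.105, and in 4 of 13 fits with 1 kidney left out.

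In the Cyp2j family, the members at or above a mean of 6 went in different directions. Cyp2j6 was 6.86, 7.17 and 7.44 in NZM2410 kidneys, against 6.52, 6.42, 6.46, 6.53 and 6.90 in TACI-Ig kidneys (difference 0.59, SE 0.11, limma adjusted p = 4.54e-04) and 6.17, 6.42 and 6.79 at 30 weeks (difference 0.70, SE 0.11, 1.63-fold higher, limma adjusted p = 6.95e-05). Only TACI-Ig kidney 5 reached into the NZM2410 range. Cyp2j11 was 11.25, 11.54 and 11.71, against 11.08, 11.22, 10.87, 10.93 and 10.73 in TACI-Ig kidneys (difference 0.55, SE 0.10, limma adjusted p = 4.92e-04) and 10.99, 11.02 and 11.28 at 30 weeks (difference 0.42, limma adjusted p = 2.13e-04). The NZM2410 kidneys lay above all TACI-Ig kidneys, and the lowest of them (11.25) lay below the highest 30-week kidney. Cyp2j5 was lower, with differences of -0.26 from TACI-Ig (limma adjusted p = 0.00525) and -0.24 from 30 weeks (limma adjusted p = 0.0253), the second of which was lost in 3 of 13 fits with 1 kidney left out. After quantile normalization the Cyp2j5 differences were -0.51 and -0.42 and those of Cyp2j11 were 0.33 and 0.27, all still called. Cyp2j9 was called in neither comparison. Of the chain-end hydroxylases, Cyp4f16 was higher than at 30 weeks (0.20, limma adjusted p = 0.0127), a call lost under each of 3 rescalings, and Cyp4v3 was higher by 0.41 in each comparison. That call was lost after cyclic loess normalization in both comparisons (adjusted p = 0.0544 against TACI-Ig and adjusted p = 0.0517 against 30 weeks), and without TACI-Ig kidney 2, 3 or 4 in the first (adjusted p = 0.0501, adjusted p = 0.0562 and adjusted p = 0.0634). Quantile normalization also lost it against TACI-Ig (0.35, limma adjusted p = 0.058) but not against 30 weeks (0.33, limma adjusted p = 0.032).

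Cyp2d12 was lower in NZM2410 kidneys and spread widely among them. It was 5.77, 6.01, 5.07, 6.10, 6.70 and 7.23 in NZM2410 kidneys 1 to 6, against 6.61, 7.63, 7.47, 7.60 and 7.23 in TACI-Ig kidneys (difference -1.16, SE 0.32, limma adjusted p = 0.00665) and 6.66, 7.37 and 7.82 at 30 weeks (difference -1.09, SE 0.30, limma adjusted p = 0.00553). NZM2410 kidneys 5 and 6, whose sample names start with other letters than the first ones, overlapped with both groups. Cyp2d26 was 12.11, 12.43 and 12.56 in NZM2410 kidneys, against 10.999, 11.72 and 12.43 as lowest, median and highest in TACI-Ig kidneys (difference 0.70, SE 0.22, limma adjusted p = 0.0152), a call not made after quantile (0.39, adjusted p = 0.155) or cyclic loess normalization (0.43, adjusted p = 0.111). Its mean was 12.37 in NZM2410 kidneys and 12.25 at 30 weeks. After quantile normalization the difference from 30 weeks was -0.13 (limma adjusted p = 0.603). Cyp2e1 was 9.66, 9.94 and 10.50 in NZM2410 kidneys, with differences of -0.65 from TACI-Ig kidneys (SE 0.22, limma adjusted p = 0.0198) and -1.21 from 30 weeks (SE 0.18, 2.31-fold lower, limma adjusted p = 3.59e-05). Its NZM2410 range overlapped with both groups. Cyp2s1 was lower than in TACI-Ig kidneys (-0.32, limma adjusted p = 0.0114) and than at 30 weeks (-0.31, limma adjusted p = 0.0321), the second of which was lost in 7 of 13 fits with 1 kidney left out. Cyp20a1 was higher than in TACI-Ig kidneys (0.50, limma adjusted p = 0.0103; 0.08 against 30 weeks, limma adjusted p = 0.545).

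Cyp1b1 was 7.22, 6.23, 7.97, 6.86, 7.25 and 8.002 in NZM2410 kidneys, against 7.78, 8.01, 7.72, 8.21 and 8.44 in TACI-Ig kidneys (difference -0.78, SE 0.28, limma adjusted p = 0.027). NZM2410 kidneys 3 and 6 lay within the TACI-Ig range. The call was lost without NZM2410 kidney 4 (adjusted p = 0.0571), TACI-Ig kidney 4 (adjusted p = 0.0552) or TACI-Ig kidney 5 (adjusted p = 0.0682). Against 30 weeks the difference was -0.58 (limma adjusted p = 0.0458), lost in 9 of 13 fits with 1 kidney left out, with adjusted p up to 0.104.

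Cyp2f2 was 5.37, 5.69 and 5.86 in NZM2410 kidneys and 6.02, 8.43 and 8.70 at 30 weeks, a difference of -2.14 (SE 0.44, 4.41-fold lower, limma adjusted p = 5.87e-04). Against TACI-Ig kidneys it was -0.12 (95% interval -0.35 to 0.12, limma adjusted p = 0.38). The adrenal cortex mean was 5.37 to 5.62 in NZM2410 kidneys, against 5.50 to 5.74 in TACI-Ig kidneys and 5.55 to 8.94 at 30 weeks, and 8 of 8 adrenal genes were lower than at 30 weeks by limma's adjusted p. Cyp2f2 and the adrenal genes were thus called lower than at 30 weeks, as were 31.3% of all genes. The part of adrenal tissue in this difference was not tested.

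**Figure D5:**
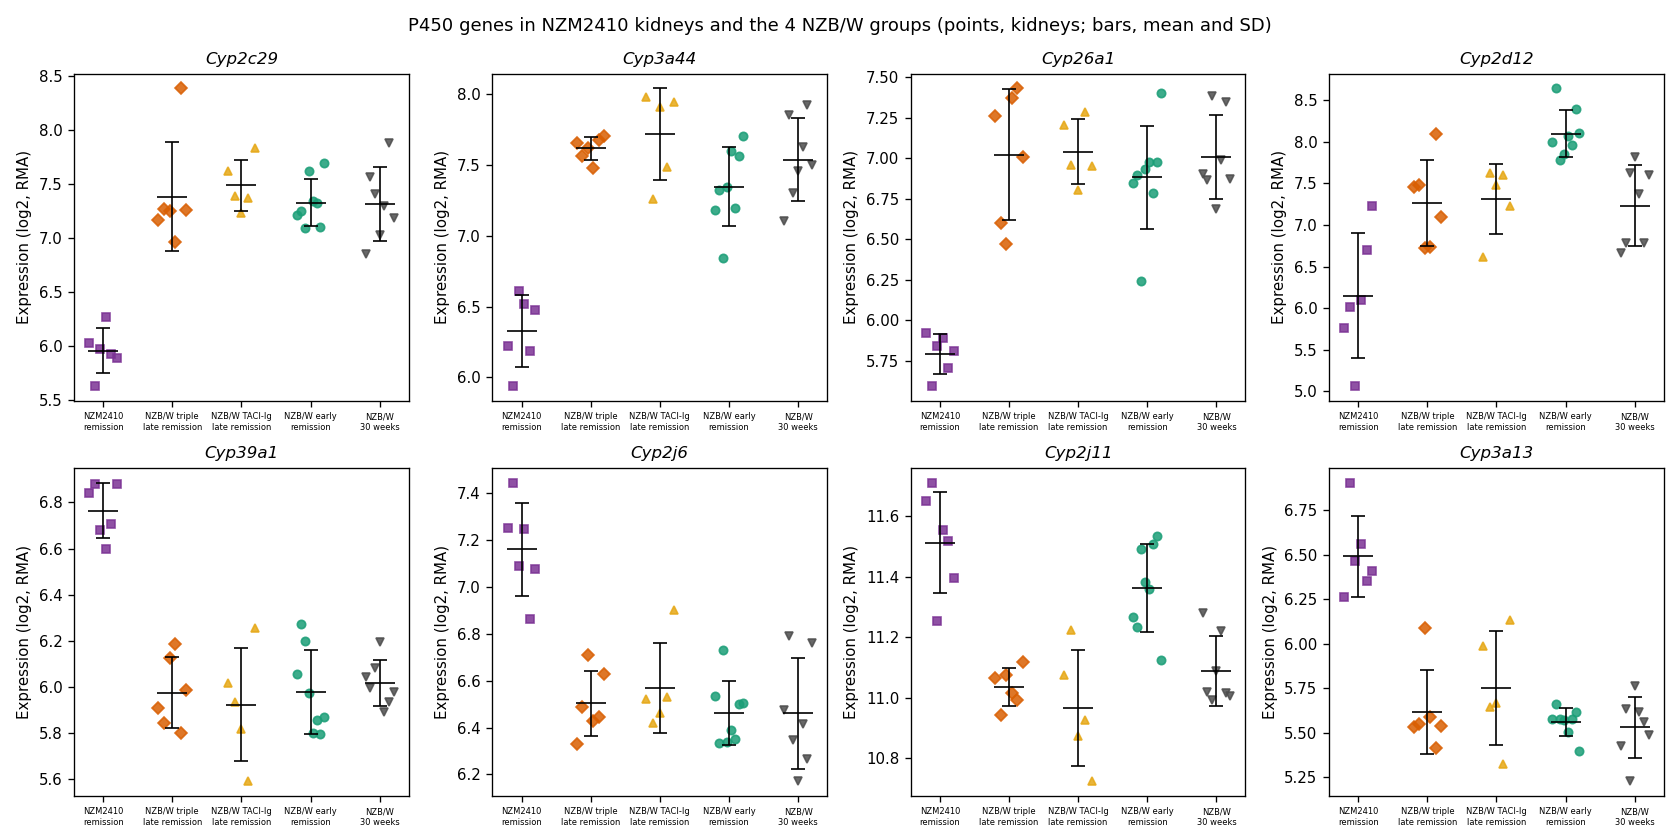
Log2 expression per kidney (points, y axis) of Cyp2c29, Cyp3a44, Cyp26a1, Cyp2d12, Cyp39a1, Cyp2j6, Cyp2j11 and Cyp3a13 in NZM2410 remission and the 4 NZB/W groups, with bars for the mean ± SD. NZM2410 kidneys lie below all TACI-Ig and 30-week kidneys for Cyp2c29 (at most 6.27), Cyp3a44 (at most 6.61) and Cyp26a1 (at most 5.92), and above them for Cyp39a1 (at least 6.60) and Cyp3a13 (at least 6.26).

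Genes that serve P450 enzymes were counted in the same fits. In the 4 comparisons among NZB/W groups, 0 genes of these lists passed. At an unadjusted p under 0.05, 5 of 8 electron donors and 4 of 7 heme synthesis genes were lower in TACI-Ig late remission than in early remission, where 8.52% of all genes were lower, and 6 and 4 were lower in triple-therapy late remission than in early remission, where 3.81% of all genes were. Their median differences were -0.25 and -0.19 for TACI-Ig, beside 0.01 over all genes, and -0.17 and -0.15 for triple therapy, beside -0.01 over all genes. Bright genes as a whole were also lower. All genes with a mean of 10 to 11, about the level of the electron donor list, had medians of -0.10 for TACI-Ig and -0.06 for triple therapy. Those with a mean of 9 to 10, about the level of the heme synthesis list, had medians of -0.07 and -0.04. The triple-therapy late-remission gene means nearly equal those of the pooled TACI-Ig and untreated kidneys, and both comparisons share the early-remission kidneys. The triple-therapy counts are thus not separate from the TACI-Ig ones. Of 18 proximal tubule genes, 12 were lower at the same limit for TACI-Ig (median difference -0.46) and 8 for triple therapy (-0.21). The part of this in the electron donor and heme synthesis values was not tested.

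Against TACI-Ig kidneys, 6 of 8 electron donors were higher in NZM2410 kidneys and 0 were lower, with a median difference of 0.39, where 28.6% of all genes were higher and 30.9% lower. Pgrmc1, a heme protein that binds P450 enzymes, was higher by 0.76 (limma adjusted p = 3.03e-05), the cytochrome b5 gene Cyb5b by 0.63, the mitochondrial ferredoxin Fdx1 by 0.51 and Cyb5r1 by 0.47. Under median centring or quantile normalization 4 were higher and 2 lower (24.5% and 23.3% of all genes after quantile normalization). Against 30 weeks, where 31.5% of all genes were higher and 31.3% lower, 2 were higher (Pgrmc1, 0.58, and Cyb5r1, 0.28) and 2 lower. Of 7 heme synthesis genes, 4 were higher than in TACI-Ig kidneys and 1 lower, with Alad (0.44), Fech (0.41) and Alas1 (0.40), the rate-limiting step, the largest, but 2 and 1 after quantile normalization, when Alas1 was not called (adjusted p = 0.203). The proximal tubule list moved in the same comparison, with 12 of 18 genes higher and 1 lower, and 3 higher and 1 lower after quantile normalization.

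Among 10 receptors of foreign compounds and lipids, 3 were higher and 2 lower in NZM2410 than in TACI-Ig kidneys, and 4 and 2 than at 30 weeks. These counts, and those of the lists that follow, stand beside 28.6% of all genes higher and 30.9% lower against TACI-Ig and 31.5% and 31.3% against 30 weeks, so the share of receptors was near that of all genes. Nr1i3 (CAR), which induces Cyp2b and Cyp2c genes in mouse liver, was lower (-0.88, limma adjusted p = 3.43e-06, and -0.87 against 30 weeks). Ppara, which controls fatty acid oxidation, was higher (1.29, limma adjusted p = 7.2e-04, and 0.71 against 30 weeks), as was Arnt, the partner of the aryl hydrocarbon receptor (0.93 and 0.57). Of the 12 retinoic acid pathway genes, 4 were higher and 1 lower than in TACI-Ig kidneys, and 5 higher and 2 lower than at 30 weeks. After quantile normalization 5 were higher and 2 lower than in TACI-Ig kidneys, and 3 higher and 2 lower than at 30 weeks. The retinol dehydrogenase Rdh10 (0.56 and 0.33) and the receptor Rara (0.45 and 0.43) were higher, and the binding protein Crabp2 was lower (-0.56 and -0.42), although Rdh10 against 30 weeks was not called after quantile normalization (adjusted p = 0.135). Of 19 epoxide hydrolases and eicosanoid genes, 4 were higher and 5 lower in each comparison, among them the phospholipase Pla2g4a, which frees arachidonic acid (0.99 and 0.87), and prostacyclin synthase Ptgis (-0.98 and -0.91). After quantile normalization 2 of the 19 were higher and 4 lower than in TACI-Ig kidneys, and 3 higher and 4 lower than at 30 weeks. Of 6 further targets of the aryl hydrocarbon receptor, 1 was higher and 2 lower than in TACI-Ig kidneys and 1 higher and 3 lower than at 30 weeks, and after quantile normalization 1 and 1, and 0 and 1.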

How the data were processed

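Total RNA of 32 whole kidneys, extracted with Trizol, was hybridised to Affymetrix arrays. Per the labels and the methods, the authors made the deposited log2 values by RMA (version not given in the sources used here) for 1 probe set per Entrez gene, normalized all arrays together and corrected for batch. The batches are not named, so no batch could be tested. Spot intensities are not analysed here, so no gene could be called above background. Of 16539 probe sets, 64 array controls and 695 without a gene name were left out, and 15780 were tested. RefSeq held the Entrez ID of 15752 of them. The highest correlation between a pair of arrays was 0.997, and no arrays were identical. A code in the sample names is shared by 30-week kidney 6 and early-remission kidney 1, and leaving both out gave no call in that comparison.

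Each of 6 comparisons was a separate limma fit of its groups (limma 3.58.1, R 4.3.3), two-sided, and called a gene at a p under 0.05 after adjustment by Benjamini and Hochberg across the 15780 genes. The authors' SAM test was not run, and its fold and q limits were set on the limma values. Alternatives were a joint fit of all groups, quantile, cyclic loess and median scaling, a filter on levels under 6, an intensity trend, the replicate number, letters of the sample names, and each kidney left out in turn. The fit was tested on simulated data. Members and lists were chosen with earlier results of these data known. Members at or above 6 were named, with kidney values for called members, or the 15 largest differences in each NZM2410 comparison, and at most 4 genes per other list. Figures were drawn with matplotlib 3.10.9.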

Additional observations from a re-analysis of the deposited data

Results flagged for a closer look

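In 36 P450 genes (the 27 at or above a mean of 6 and 9 dimmer ones), 22 of 180 gene and group combinations held 1 kidney far from the others of its group by Dixon's criterion. Chance alone would mark about 1 in 20 if the combinations were independent. They share kidneys, and the 9 dimmer genes entered because they had been named for their differences. No excess over chance is thus read from this count.

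Early-remission kidney 8 had Cyp7b1 at 8.61 (others 5.65 to 6.09). Early-remission kidney 2 was high in Cyp27a1 (9.74, others 9.03 to 9.32), Cyp2d22 (9.55, others 8.49 to 8.77) and Cyp2s1 (9.09, others 8.45 to 8.64).

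At 30 weeks, kidney 2 was low in Cyp2d26 (11.10, others 12.29 to 12.64), Cyp20a1 (6.06, others 6.61 to 6.85), Cyp27a1 (8.74, others 9.15 to 9.43) and Cyp2d22 (8.08, others 8.66 to 8.93). In that kidney the mean of the 18 proximal tubule genes was 11.37, against 11.86 to 12.04 in the others. Kidney 3 of that group was low in Cyp2j5 (11.41, others 11.82 to 12.04), and kidney 5 was high in Cyp3a11 (7.01, others 4.69 to 5.10).

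In triple-therapy late remission, kidney 10 was high in Cyp2c29 (8.39, others 6.96 to 7.27), Cyp2c70 (6.75, others 6.09 to 6.29) and Cyp3a11 (6.67, others 4.70 to 4.90), and the mean of 11 liver genes was 8.19 there, against 7.27 to 7.84 in the others. Kidney 8 was high in Cyp2d9 (8.80, others 7.30 to 7.86) and Cyp3a13 (6.09, others 5.42 to 5.59) and low in Cyp2j5 (11.60, others 11.85 to 11.98). Kidney 7 was high in Cyp2r1 (4.24, others 3.97 to 4.05).

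In TACI-Ig late remission, kidney 5 was high in Cyp2j6 (6.90, others 6.42 to 6.53) and kidney 3 low in Cyp46a1 (6.02, others 6.25 to 6.29). Among NZM2410 kidneys, kidney 3 was high in Cyp4v3 (7.71, others 7.13 to 7.29) and Cyp7b1 (6.77, others 5.91 to 6.21), and kidney 2 was low in Cyp2c70 (5.62, others 5.90 to 5.999). The part of other tissue or RNA quality in these values was not tested.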

How the results depend on the processing

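With each kidney left out in turn, the number of P450 genes called was 0 to 0 for early remission against 30 weeks, 0 to 4 for TACI-Ig against 30 weeks, 0 to 7 for TACI-Ig against early remission and 0 to 1 for triple-therapy late against early remission. The fits with 4 and 7 called 8.3% and 6.82% of all genes. The count was 36 to 40 for NZM2410 against TACI-Ig (8 to 10 higher, 27 to 31 lower) and 35 to 37 for NZM2410 against 30 weeks (7 to 10 higher, 27 to 29 lower). The main counts were 0 in each NZB/W comparison and 38 in each NZM2410 comparison. The main NZM2410 fits called 59.5% of all genes against TACI-Ig and 62.8% against 30 weeks. Shares of all genes are not given here for the NZM2410 fits with 1 kidney left out. A joint fit of all groups called 3 members for TACI-Ig against early remission (1.99% of all genes). For triple-therapy late against early remission, a covariate for name letters, which rests on early-remission kidney 8 as the 1 early kidney with the late letter, gave 2 calls (0.241% of all genes) and turned the Cyp3a44 difference to -0.088, and leaving out early-remission kidneys 2 and 8 gave 2 (0.475%). Leaving those and 30-week kidney 2 out gave 1 call for early remission against 30 weeks (1.21%). Without genes of a mean under 6, fewer genes were tested, and 17 members were called against TACI-Ig (9 lower) and 15 against 30 weeks (9 lower). In the main fits 53.3% and 56.9% of all genes with a mean of at least 6 were called. After quantile normalization 19 were lower than at 30 weeks, as were 23.8% of all genes under 6 and 24.9% of those at or above 6. The cause of the changes was not tested.

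Replicate numbers did not pair the kidneys: same-numbered kidneys correlated between -0.71 and 0.34, and in no comparison was every pair over 0.1. With the replicate block, 1 member (Cyp2e1) was called for TACI-Ig against early remission. The share of all genes in that fit is not given here. Levels, read without a background measure, limit what can be said of the 28 members under 6. The number of kidneys, 5 to 8 per group, limits the precision.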
